A study of Mus musculus with 10 samples.

Results

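The 10 genes described here are the R-spondin receptors Lgr4, Lgr5 and Lgr6, the ubiquitin ligases Rnf43 and Znrf3, the secreted antagonist Sfrp1, the cytoplasmic feedback genes Axin2 and Nkd1, and the nuclear effectors Lef1 and Tcf7l2. They were chosen by gene symbol as receptors, targets and antagonists of the Wnt pathway from 48709 genes in each table, of which 21695 are protein-coding. The libraries were made from supporting cells of the utricle, a balance organ of the inner ear, explanted from mice at postnatal day 21 that carried the Lfng-EGFP reporter. The reporter marks supporting cells, which were sorted on its fluorescence after culture. Utricles received 10 µM TRULI, an inhibitor of the Lats kinases that restrain the coactivator Yap, or 0.1% DMSO as a control, for 5 days, and were taken at once or after a further 5 days without the agent. By the sample labels there were 3 control and 3 TRULI libraries at 5 days, and 2 control and 2 TRULI libraries after withdrawal. The study's methods give at least 2 biological replicates per condition, but the labels do not say whether libraries came from separate animals. The p-values thus measure the spread between these libraries, which may be technical in part.

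Wnt ligands bind Frizzled and Lrp co-receptors at the cell surface and stabilise β-catenin, which enters the nucleus and activates genes together with Tcf and Lef factors. Rnf43 and Znrf3 remove Frizzled receptors from the membrane, and R-spondins, acting through Lgr receptors, withdraw these ligases and so prolong the signal. Axin2 and Nkd1 are induced by the pathway in many tissues and dampen it, and Sfrp1 binds Wnt proteins outside the cell. In the inner ear, Lgr5 and Axin2 mark cells of the neonatal cochlea that can divide or form hair cells when Wnt signaling is raised.

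The sample labels and the deposited names disagree on the condition of 4 libraries. A pair of libraries labelled TRULI at 5 days carry names of control withdrawal and are called pair A here, and the pair labelled control withdrawal carries names of TRULI at 5 days and is called pair B. The other libraries agree on the condition: 3 controls at 5 days, 1 TRULI library at 5 days and 2 TRULI withdrawal libraries. Ccn2, a direct Yap target, stood at 8.87 to 15.6 CPM (counts scaled to a library size of 1000000) in the controls at 5 days, 712 CPM in the TRULI library whose label and name agree, 489 and 481 CPM in pair B, and 2.03 and 6.47 CPM in pair A. Ajuba, Amotl2 and the cell-cycle gene Mki67 parted the pairs in the same direction. In pair B they were at 86.0 and 73.0, 46.7 and 54.0, and 127 and 56.2 CPM. In pair A they were at 6.88 and 9.70, 9.39 and 2.51, and 0.469 and 0 CPM. The levels of these genes thus went with the deposited names of these 4 libraries and against their labels. Where the names hold, comparisons by label that include pair A mix conditions. The withdrawal comparison by label then sets TRULI withdrawal against TRULI at 5 days and holds no control library. Every comparison below is given both by label and by name. CPM values are expected counts divided by library size with TMM scaling over all 10 libraries. Total counts ran from 2463872 to 6255149, so that a count of 3, taken as the floor, was worth 0.469 to 1.20 CPM on this scale. The supporting-cell gene Sox2 was present in every library at 31.5 to 89.5 CPM.

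The sequences before the transcription starts are given for 3 of these genes. They are Axin2, the standard Wnt target, Nkd1, the one gene called in any comparison, and Lgr4, the one gene whose window held a TEAD match. They were chosen after the values and matches had been seen. Each run holds the 250 bases before a RefSeq start in GRCm38.p6, on the plus strand, 5′ to 3′, and capitals mark matches to the motifs searched below. The Axin2 and Lgr4 runs end directly before the GENCODE gene starts. That of Nkd1 ends at 88527632, inside the gene, which starts at 88521354, so it precedes an internal start.
Axin2, chr11:108920099-108920348: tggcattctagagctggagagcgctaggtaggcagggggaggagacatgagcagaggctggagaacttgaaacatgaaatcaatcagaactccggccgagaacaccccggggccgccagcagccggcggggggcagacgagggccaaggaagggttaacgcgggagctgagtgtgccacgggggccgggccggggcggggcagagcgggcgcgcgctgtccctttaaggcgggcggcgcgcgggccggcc
Nkd1, chr8:88527383-88527632: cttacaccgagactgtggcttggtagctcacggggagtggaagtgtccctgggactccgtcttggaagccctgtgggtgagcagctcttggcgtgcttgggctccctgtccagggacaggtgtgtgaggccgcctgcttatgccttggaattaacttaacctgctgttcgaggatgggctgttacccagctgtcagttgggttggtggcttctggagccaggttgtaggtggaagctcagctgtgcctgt
Lgr4, chr2:109917397-109917646: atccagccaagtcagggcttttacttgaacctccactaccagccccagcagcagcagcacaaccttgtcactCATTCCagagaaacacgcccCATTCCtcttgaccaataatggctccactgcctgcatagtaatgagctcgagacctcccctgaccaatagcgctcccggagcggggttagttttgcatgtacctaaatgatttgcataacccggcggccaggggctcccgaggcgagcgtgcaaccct
Windows of 250 bases before to 50 after the start were searched on both strands, and the RefSeq table held 12 windows for 7 of the 10 genes. The TCF/LEF letters CTTTGAA or CTTTGAT were in 0 of these 12 windows and in 8.65% of all 32851 windows. The TEAD letters GGAATG were in 1 of the 12, that of Lgr4, and in 14.7% of all windows. The Lgr4 window held the reverse complement CATTCC at positions 73 and 93, that is 178 and 158 bases before the start. The shorter TCF/LEF letters CTTTGA, which the 7-letter forms contain, were in 1 of the 12 windows, one of Lef1, and in 16.0% of all windows. A match describes the letters only, and its absence says nothing about binding elsewhere.

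Levels were compared between genes per length, as FPKM over protein-coding counts. Sfrp1 was by far the most abundant of the 10, at a mean of 281 FPKM and a range of 241 to 336 over the 10 libraries, which placed it at rank 263 of 15784 detected protein-coding genes. Axin2 followed at a mean of 18.6 FPKM, Lgr4 at 17.5, Lgr6 at 14.9, Nkd1 at 11.3, Znrf3 at 11.2 and Rnf43 at 7.76. Lgr5 at 1.50, Tcf7l2 at 0.784 and Lef1 at 0.185 FPKM closed the order. Sfrp1 alone had a range that did not overlap that of the next gene, and all other neighbours in the order overlapped over the libraries. Within single libraries Rnf43 exceeded Lgr5 in 10 of 10, Znrf3 exceeded Rnf43 in 9 of 10, and Axin2 exceeded Lgr4 in only 3 of 10, its higher mean being carried by few libraries.

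**Figure D1:**
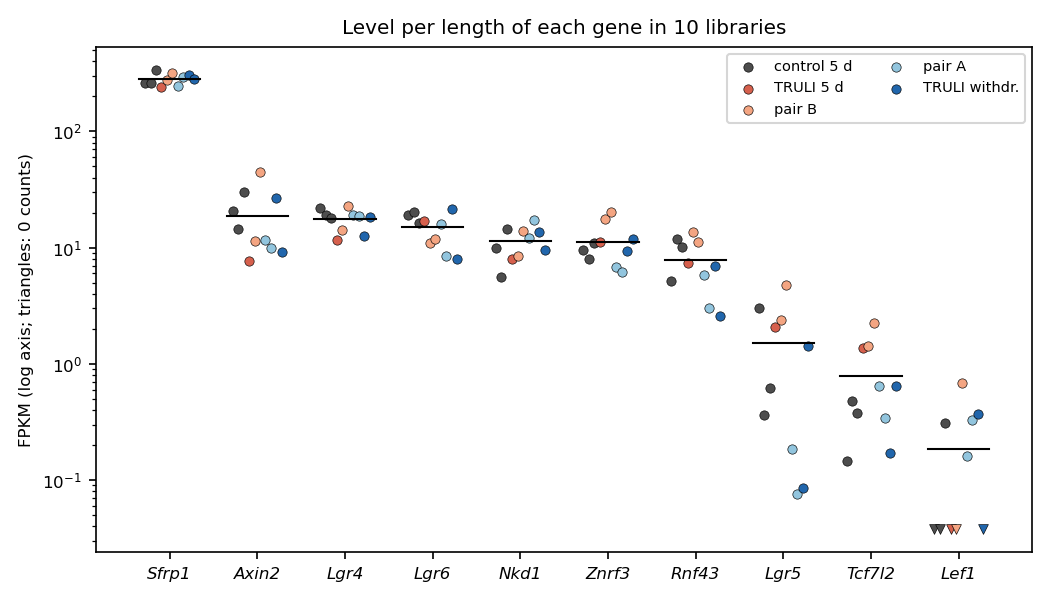
Level per length (FPKM, log axis) of the 10 genes in each of 10 libraries, with bars at the mean and triangles at the foot for libraries without a count. Sfrp1 lies above all others at 241 to 336 FPKM, 6 genes lie between 7.76 and 18.6 FPKM on average, and Lgr5, Tcf7l2 and Lef1 lie at or below 1.50.

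Lgr4 lies on chromosome 2 from 109917647 to 110014257 on the plus strand (GRCm38, GENCODE M21), and encodes the most broadly expressed of the 3 receptors. It stood at 84.3, 71.9 and 63.4 CPM in the controls at 5 days, 40.5 CPM in the TRULI library, 48.5 and 86.0 CPM in pair B, 84.3 and 94.1 CPM in pair A, and 54.1 and 88.3 CPM after TRULI withdrawal. In CPM its libraries overlapped between the groups of every comparison. Per length only withdrawal by name parted them, at 12.6 to 18.2 FPKM with TRULI and 18.6 to 18.9 FPKM in the controls. Lgr6, on chromosome 1 from 134983301 to 135105276 on the minus strand, stood at 97.5, 105 and 80.5 CPM in the controls, 80.4 CPM in the TRULI library, 51.0 and 61.1 CPM in pair B, 95.4 and 58.5 CPM in pair A, and 124 and 51.9 CPM after TRULI withdrawal. The lowest control and the TRULI library were nearly equal, pair B was lower, and the 2 withdrawal libraries differed more from each other than the group means of any comparison.

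Lgr5, the stem-cell marker of many epithelia, lies on chromosome 10 from 115450311 to 115587780 on the minus strand and was sparse. It had 15, 4 and 8 counts in the controls at 5 days, 26 in the TRULI library, 30 and 54 in pair B, 5 and 1 in pair A, and 2 and 32 after TRULI withdrawal. In CPM these were 5.99, 1.31 and 1.98, then 6.83, then 7.46 and 12.1, then 0.782 and 0.359, and last 0.348 and 6.51. In CPM the 3 libraries named TRULI at 5 days were the highest of the 10, and the 2 TRULI withdrawal libraries were the lowest and the fourth highest. Per length the order differed, since the effective length of Lgr5 ran from 2479 to 4486 bases at day 5 by name: control 1 stood at 3.03 FPKM, above 2 of the 3 libraries named TRULI at 2.06, 2.38 and 4.76 FPKM. An antisense transcript, A930009A15Rik, overlaps this gene, and whether counting used the strand is not given in the sources used here.

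Rnf43 and Znrf3 encode ligases with the same action on Frizzled receptors and both lie on chromosome 11, Rnf43 from 87662722 to 87735539 on the plus strand and Znrf3 from 5276324 to 5444847 on the minus strand. Rnf43 stood at 14.8, 31.2 and 26.8 CPM in the controls at 5 days, 19.2 CPM in the TRULI library, 24.4 and 27.1 CPM in pair B, 18.6 and 10.1 CPM in pair A, and 22.3 and 6.31 CPM after TRULI withdrawal. Znrf3 stood at 42.0, 35.2 and 46.1 CPM in the controls, 44.4 CPM in the TRULI library, 67.4 and 82.9 CPM in pair B, 35.7 and 35.9 CPM in pair A, and 44.2 and 59.4 CPM after TRULI withdrawal. Pair B was the highest pair for Znrf3, whereas for Rnf43 it lay within the range of the controls. The gene 1110028F11Rik on the same strand overlaps Rnf43, so its reads may be split between the 2 genes, and Gm45496 overlaps Nkd1 in the same way. Gm11670 overlaps Axin2 on the other strand.

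Sfrp1, on chromosome 8 from 23411502 to 23449632 on the plus strand, was the steadiest member, with a highest value 1.75 times its lowest. It stood at 858, 866 and 1080.3 CPM in the controls at 5 days, 737 CPM in the TRULI library, 824 and 1043 CPM in pair B, 949 and 1292 CPM in pair A, and 1133 and 1180.4 CPM after TRULI withdrawal. Axin2, on chromosome 11 from 108920349 to 108950783 on the plus strand, varied most among the genes with at least 10 counts in every library, 6.93-fold from lowest to highest. It stood at 31.6, 24.6 and 49.1 CPM in the controls, 9.99 CPM in the TRULI library, 19.4 and 69.2 CPM in pair B, 20.8 and 20.8 CPM in pair A, and 39.0 and 17.5 CPM after TRULI withdrawal. The libraries of pair B thus held both a low and the highest Axin2 level.

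Nkd1, which binds Dishevelled, lies on chromosome 8 from 88521354 to 88594884 on the plus strand. It stood at 17.2, 13.5 and 31.2 CPM in the controls at 5 days, 14.5 CPM in the TRULI library, 20.1 and 33.6 CPM in pair B, 43.2 and 56.4 CPM in pair A, and 47.1 and 37.2 CPM after TRULI withdrawal. Pair A and the TRULI withdrawal libraries were the highest 4, and no other library reached them. The nuclear effectors were near the floor. Lef1, on chromosome 3 from 131110471 to 131224356, had 0 counts in 5 libraries, which allows up to 0.610 to 1.20 CPM there, and at most 5 counts in any, or 1.12 CPM. Tcf7l2, on chromosome 19 from 55741820 to 55933654, had 1 to 13 counts, or 0.400 to 3.42 CPM, with the TRULI library and pair B at 3.42, 1.99 and 2.69 CPM and the controls at 0.400, 1.31 and 0.991 CPM.

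**Figure D2:**
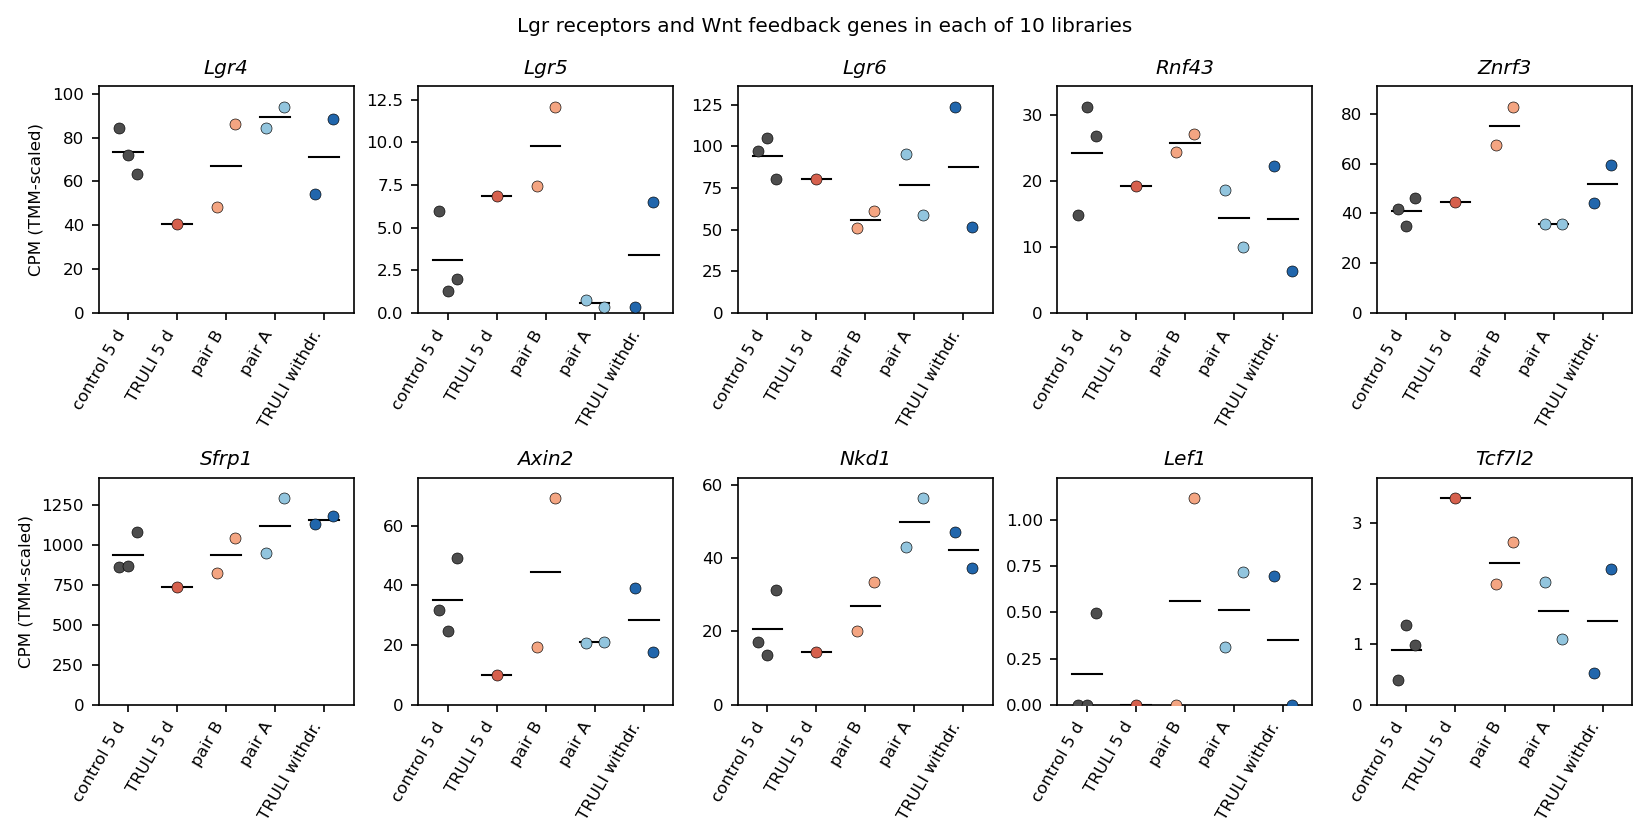
CPM (linear axis from 0, TMM-scaled) of each gene in 10 libraries, by the 3 controls and 1 TRULI library at 5 days, pairs B and A, and the 2 TRULI withdrawal libraries. Bars mark means. Nkd1 is at 37.2 to 56.4 CPM in pair A and after TRULI withdrawal and at 13.5 to 33.6 CPM elsewhere, and Lgr5 reaches 12.1 CPM in pair B.

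The comparison at 5 days asks how Lats inhibition alters these genes. By label, 7 of the 10 genes passed the filter on low counts and 0 were called (edgeR quasi-likelihood test, adjusted p below 0.05 and a log2 fold change beyond 1), against a background of 0.00945% of 10580 genes tested. None of the 7 reached an unadjusted p below 0.05, DESeq2 called 0, and their median log2 fold change was −0.07 against 0.04 over all genes tested. Over all genes 1450 of 10580 had an unadjusted p below 0.05 and DESeq2 called 243. Axin2 was the one gene of the 10 whose groups did not overlap, at 9.99 to 20.8 CPM in the TRULI libraries and 24.6 to 49.1 CPM in the controls, in a comparison where 18.4% of the genes tested did so. Its unadjusted p of 0.0523 did not pass (adjusted p = 0.368, edgeR).

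By name, 8 genes passed the filter and 0 were called, against 3.1% of 10984 genes tested, and DESeq2 called 0. Of the 8, 3 had an unadjusted p below 0.05, as did 1801 of the 10984 genes tested, of which DESeq2 called 565. Lgr5 was at 6.83 to 12.1 CPM in the libraries named TRULI and 1.31 to 5.99 CPM in the controls, a log2 fold change of 1.57 (SE 0.60, 95% interval 0.25 to 2.89, adjusted p = 0.215, edgeR). Znrf3 was at 44.4 to 82.9 CPM against 35.2 to 46.1 CPM, a log2 fold change of 0.68 (SE 0.27, adjusted p = 0.231). Lgr6 was at 51.0 to 80.4 CPM against 80.5 to 105 CPM, a log2 fold change of −0.53 (SE 0.23, adjusted p = 0.288). Groups did not overlap for 3 of the 10 genes, Lgr5, Lgr6 and Tcf7l2, with Lgr6 parted by the margin between 80.4 and 80.5 CPM. Tcf7l2 did not pass the filter. Among genes tested, groups did not overlap for 2 of the 8 members and for 21.4% of all genes. With the replicate number as a block, adjusted p was 0.0972 for Lgr5, 0.0890 for Znrf3 and 0.112 for Lgr6 (edgeR). None passed, whereas 6.15% of all genes tested were called with the block. Per length the groups overlapped for Lgr5 and Lgr6 and not for Tcf7l2 or Znrf3, and with effective length in the model the log2 fold change was 1.33 for Lgr5 (adjusted p = 0.450, edgeR) and 0.75 for Znrf3 (adjusted p = 0.226). For Sfrp1 the 95% interval of the log2 fold change was −0.58 to 0.42.

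**Figure D3:**
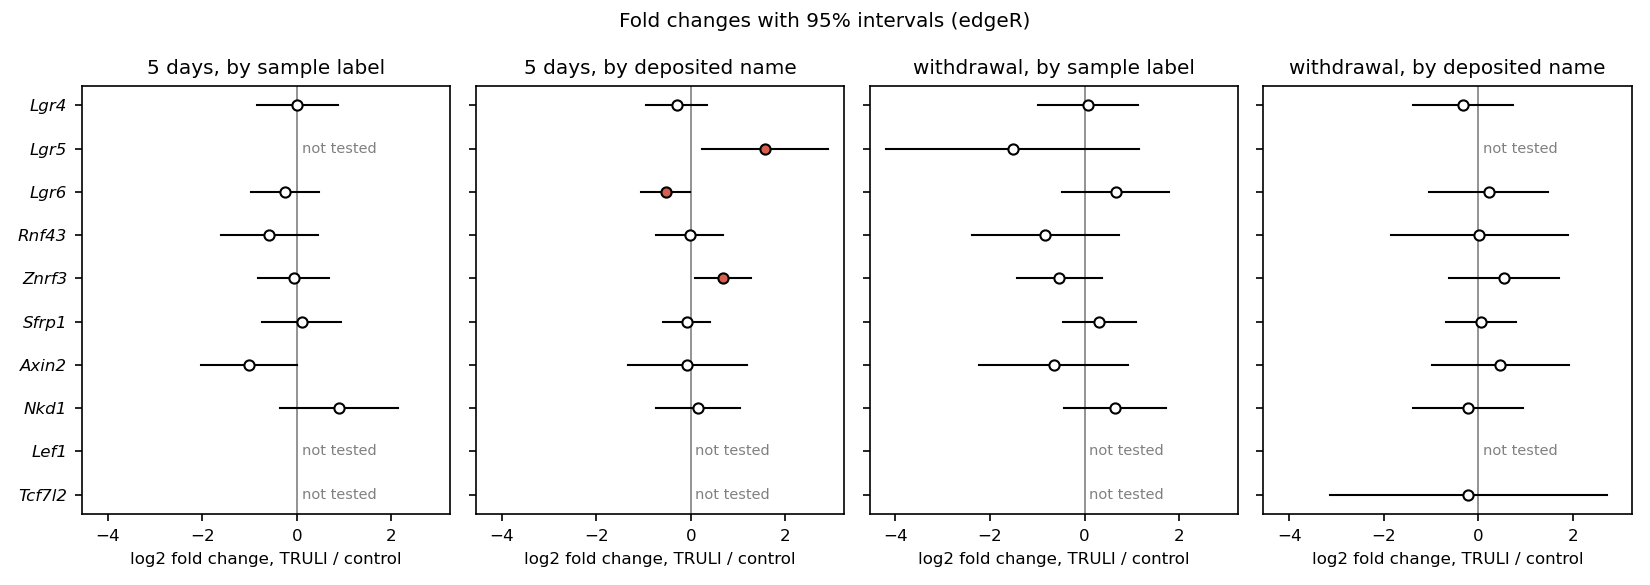
Log2 fold changes of TRULI over control with 95% intervals (edgeR), for 5 days and for withdrawal, by sample label and by deposited name. Filled points have an unadjusted p below 0.05: Lgr5 at 1.57, Znrf3 at 0.68 and Lgr6 at −0.53 in the 5-day comparison by name, none of which passed after adjustment.

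After withdrawal, by label, 8 genes passed the filter and 0 were called, against 1.97% of 11469 genes tested. The controls of this comparison are pair B, which the names give as TRULI at 5 days. None of the 8 reached an unadjusted p below 0.05 and DESeq2 called 0, whereas over all genes 2823 did and DESeq2 called 1396. Of all 10 genes, Lgr5, Rnf43, Znrf3, Sfrp1 and Nkd1 had groups that did not overlap in CPM, but with 2 libraries a group so did 58.1% of the genes tested. Per length the groups of Sfrp1 and Nkd1 overlapped and those of Tcf7l2 did not. Single libraries decided the count: without TRULI withdrawal 1, Axin2 (log2 fold change −1.36, adjusted p = 0.0389) and Rnf43 (−2.05, 0.00789) were called, and without TRULI withdrawal 2, Lgr5 (−4.72, 0.00437) and Lgr6 (1.13, 0.0494) were, each fit leaving 1 library in a group that was assumed to vary like the other. In the same fits 24.5% and 18.4% of all genes tested were called. No member was called under both omissions. By name, 8 genes passed the filter and 0 were called, as were 0 of 10845 genes in all, a background of 0%. No member and 490 of all genes had an unadjusted p below 0.05, and DESeq2 called 0 members and 46 genes in all. In CPM Znrf3 alone of the 10 did not overlap, at 44.2 and 59.4 CPM against 35.7 and 35.9 CPM, as did 28.7% of the genes tested. Per length the groups of Lgr4 did not overlap either. Simulated counts gave every gene the same coefficient of variation, the common one measured in these libraries. Of 200 genes changed 4-fold, 2 were recovered for withdrawal by label and 0 by name. Real genes differ in spread, and by label the real fit called 226 of 11469 genes. The simulated shares therefore need not hold for a single member.

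The difference between the 5-day and the withdrawal response, tested over all 10 libraries, called 0 of 9 genes by label and 0 of 9 by name. The background was 0% of 11918 genes in both groupings. No member had an unadjusted p below 0.05 in either, whereas 792 genes by label and 1110 by name did, and DESeq2 called 0 members and 41 and 79 genes. The intervals were wide: that of Lgr5 ran from −2.65 to 5.28 by label and from −4.04 to 2.27 by name on the log2 scale.

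Day 10 was also compared with day 5 over both treatments, a comparison added after the levels of Nkd1 had been seen in the libraries. By label, 0 of 9 genes were called against 0.00839% of 11918 genes, and DESeq2 called 0 against 0.117%. Groups did not overlap for 0 of 10 genes against 0.789%. Znrf3 had the one unadjusted p below 0.05 among the members, with a log2 fold change of 0.65 (SE 0.24, adjusted p = 0.693, edgeR). Over all genes 841 of 11918 had one. By name, Nkd1 alone of 9 genes was called, by edgeR and by DESeq2. The background was 27.9% called by edgeR, 29.9% called by DESeq2 and 24.3% of genes with groups that did not overlap. Nkd1 was at 37.2 to 56.4 CPM at day 10 and 13.5 to 33.6 CPM at day 5, a log2 fold change of 1.07 (SE 0.31, 95% interval 0.40 to 1.75, adjusted p = 0.0178, edgeR). With 1 in 9 tested members called, the share was below the background. By name 2 of 9 members and 5610 of 11918 genes had an unadjusted p below 0.05 between days. The call of Nkd1 was the single one among 67 tests of these genes in 8 comparisons, of which 6 had an unadjusted p below 0.05.

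The call of Nkd1 did not hold per length. Its effective length, which depends on the isoforms estimated, was 2161 to 3311 bases at day 5 and 3062 to 3850.3 bases at day 10, and in FPKM the groups overlapped, at 5.63 to 14.4 against 9.54 to 17.3. With effective length in the model the log2 fold change was 0.69 (adjusted p = 0.110, edgeR). The call was also lost without control 2 at 5 days (0.98, adjusted p = 0.0466, below the fold limit), without the library named control withdrawal 2 (0.97, 0.0551), without the library named TRULI 1 at 5 days (0.95, 0.0421) and without TRULI withdrawal 1 (0.98, 0.0448). Lgr5 was lower at day 10 by name, at 0.348 to 6.51 CPM against 1.31 to 12.1 CPM (log2 fold change −1.81, SE 0.77, adjusted p = 0.0832, edgeR), and reached −3.37 (adjusted p = 0.00882) without TRULI withdrawal 2, a fit that called 24.5% of all genes. Rnf43 was called only without TRULI withdrawal 1 (−1.32, adjusted p = 0.0179), where 29.8% of all genes were called.

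**Figure D4:**
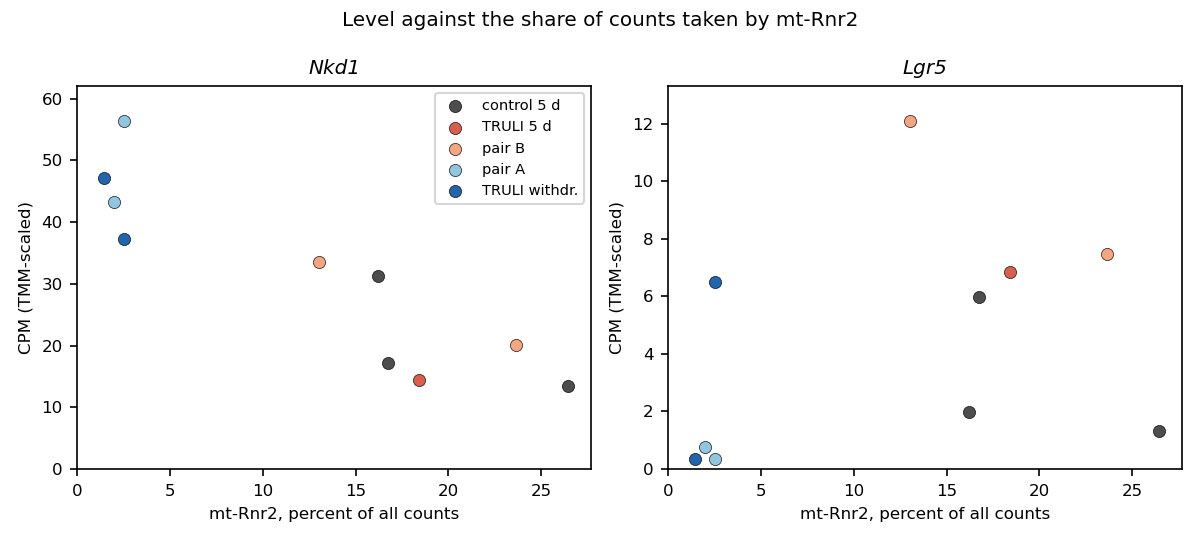
CPM of Nkd1 and Lgr5 (linear axes from 0) against the percent of all counts taken by mt-Rnr2, 1 point a library. The 4 libraries named day 10 have 1.45 to 2.53% mt-Rnr2 and Nkd1 at 37.2 to 56.4 CPM, and the 6 named day 5 have 13.0 to 26.4% and Nkd1 at 13.5 to 33.6 CPM.

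By name, TRULI was present in part of the day 5 libraries and withdrawn by day 10, and the contrast does not separate withdrawal from time. The day 10 libraries also differed from the day 5 libraries in other measures, which cannot be told apart from time. The mitochondrial ribosomal RNA mt-Rnr2 took 1.45 to 2.53% of counts at day 10 and 13.0 to 26.4% at day 5, and Lfng, the gene for which the sorting reporter is named, was at 21.2 to 100.2 CPM against 290 to 563 CPM. The 11 supporting-cell markers, all detected, summed to 4197 to 7016 CPM at day 10 and 10113 to 15820.1 CPM at day 5, where Otog alone was at 3095 to 10304 CPM. Of the 11, 5 were lower in every day 10 library (Sox2, Lfng, Otoa, Slc1a3 and Sparcl1) and 6 overlapped, Gjb6 among them at 375 to 499 CPM at day 10 and 199 to 469 CPM at day 5. The 10 hair-cell markers, all detected, summed to 27.1 to 830.1 CPM and 137 to 643 CPM. The 9 mesenchymal markers summed to 36.0 to 126 CPM at day 10, with Pou3f4 and Tbx18 at 0, and to 19.2 to 117 CPM at day 5. The 5 glial markers, all detected, summed to 67.5 to 146 CPM and 54.3 to 83.8 CPM. Of 4 endothelial markers Emcn was at 0 in all libraries and the sum was at most 2.96 CPM, and of 5 immune markers Adgre1 and C1qa were at 0 in all and the sum was at most 18.1 CPM. Of 4 melanocyte markers Tyr and Mlana were at 0 in all and the sum was at most 14.1 CPM. The 4 neuronal markers, all detected, summed to 0.718 to 47.7 CPM at day 10 and 5.70 to 70.9 CPM at day 5. Of 4 muscle markers Myod1 made up nearly all of the sum at day 10, at 14.4 to 89.1 CPM, and was at most 0.400 CPM at day 5. Myog was at 0 in all and Des at most 0.359 CPM. Acta1 reached 1.12 CPM at day 5, the highest muscle sum of that day. The 5 cell-cycle markers summed to 1.80 to 9.04 CPM at day 10 and 3.20 to 321 CPM at day 5. Their part in the result for Nkd1 was not tested, and in sorted bulk RNA fewer cells of a type and less RNA per cell cannot be told apart.

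Of 88 other Wnt pathway genes, 56 to 59 passed the filter in each comparison. At 5 days by label 0 of 56 were called, with 37 higher and 19 lower and a median log2 fold change of 0.16 against 0.04 over all genes; 11 had an unadjusted p below 0.05 and DESeq2 called 1. By name 2 of 57 rose and 1 fell, against the background of 3.1%, and DESeq2 called 8. Myc rose by 3.14 on the log2 scale (SE 0.46, adjusted p = 0.00683, edgeR), from 0.799 to 4.21 CPM in the controls to 25.9 to 27.1 CPM, and Ccnd1, a G1 cyclin, by 3.01 (SE 0.50, adjusted p = 0.0110). Both are also driven by other signals in many cells. Ctnnbip1, which blocks β-catenin from binding Tcf factors, fell by 1.13 (SE 0.26, adjusted p = 0.0441).

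After withdrawal, by label, 1 of 58 other Wnt genes rose and 1 fell, against the background of 1.97%, and DESeq2 called 5. Dact2, a modulator of Dishevelled, rose by 2.97 on the log2 scale (SE 0.57, adjusted p = 0.0475, edgeR), and Kremen1, a Dickkopf receptor, fell by 1.86 (SE 0.34, adjusted p = 0.0457). Where the names hold, these are differences between TRULI withdrawal and TRULI at 5 days. By name 0 of 59 were called, 3 with an unadjusted p below 0.05, and DESeq2 called 0. For the difference between responses 0 of 59 were called in either grouping, with 5 by label and 7 by name at an unadjusted p below 0.05 and 0 by DESeq2.

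Between day 10 and day 5, by name, 6 of 59 other Wnt genes rose and 9 fell, or 15 of 59, against the background of 27.9%. DESeq2 called 15 of these genes and 29.9% of all genes tested. Tcf7l1, a Tcf factor that mostly represses targets, rose by 3.24 on the log2 scale (SE 0.35, adjusted p = 6.87e-05, edgeR), from 5.59 to 22.6 CPM at day 5 to 59.3 to 137 CPM at day 10. Axin1, the scaffold of the β-catenin destruction complex, fell by 2.11 (adjusted p = 0.00111), the co-receptor Lrp5 fell by 1.66 (0.0174), Tnfrsf19 fell by 1.65 (0.0246), the kinase Gsk3a fell by 1.56 (0.0139) and Kremen1 fell by 1.52 (0.000359), while the co-repressor Tle2 rose by 1.49 (0.0112) and Ccnd1 fell by 1.36 (0.0184). The contrast averages the control and TRULI groups at each day, so by name the end of a response to TRULI also enters it. Ccnd1, given above, was higher with TRULI at 5 days by name. Between days by label 0 of 59 were called, with 4 at an unadjusted p below 0.05, and DESeq2 called 0.

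Among 8161 genes with at least 10 counts in every library, those whose scaled log2 CPM profile lay nearest to Axin2 over the 10 libraries were H2-D1 and Elp4, at root mean square distances of 0.471 and 0.473. For Sfrp1 they were Cyb5r3 at 0.301 and Ints4 at 0.384. Lgr5 and Lef1, with as few as 1 and 0 counts, were not ranked. The points share library and depth, and the distances are descriptions over 10 libraries.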

How the data were processed

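RNA was extracted from sorted supporting cells and sequenced as 10 libraries. The deposited tables hold expected counts per gene with effective lengths, made by the authors on GRCm38 after mapping with STAR; the counting program is not given in the sources used here, and the labels name a poly(A) TruSeq library whereas the study's methods name a QIAseq single-cell kit. Expected counts were rounded. Of 48709 genes, 48349 matched GENCODE M21.

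Genes with low counts were removed (filterByExpr), and groups were compared with edgeR 4.0.16 quasi-likelihood tests after TMM scaling in R 4.3.3, with Benjamini-Hochberg adjustment over protein-coding genes tested. A gene was called at an adjusted p below 0.05 and a log2 fold change beyond 1. The study used DESeq2, run here as an alternative (1.42.0). On simulated counts with the measured coefficient of variation (0.488 and 0.464 at 5 days and withdrawal by label, 0.307 and 0.535 by name), 64, 2, 188 and 0 of 200 genes changed 4-fold were recovered. With a coefficient of 0.316 these were 191, 134, 182 and 142. Total counts ran from 2463872 to 6255149, and floors of 3 counts cover counting error only.

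Samples were grouped by label and, side by side, by deposited name, since the 2 differ for 4 libraries. Same-numbered libraries deviated together at 5 days by name (correlations 0.199 to 0.401) but not by label (−0.198 to 0.0596). The deviations are from group means, so the correlations are not independent, and the labels do not say what a replicate number shares. The members and gene lists were chosen with earlier results of these data known. The comparison of day 10 with day 5, the effective-length model, overlap per length and library sizes taken before the filter were added after the data were seen. All 10 members are shown. Statistics are printed for those with an unadjusted p below 0.05, and values without them otherwise; other Wnt genes are named where called, at most 8 a comparison. Axin2 at 5 days by label, Sfrp1 and Lgr5 intervals, and calls made only when a library was left out were added outside this rule after values were seen. Genes most alike were the 2 nearest by root mean square distance of scaled profiles.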

Additional observations from a re-analysis of the deposited data

How the results depend on the processing

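The main count of members called was 0 in every comparison except day 10 against day 5 by name, where it was 1. Against a main count of 0, agreement means only that 0 members were called again. In some fits no gene at all was called, as for withdrawal by name (0 of 10845 genes). A count can also stay while the gene changes, as between days by name without TRULI withdrawal 1, where Rnf43 replaced Nkd1. Counts of members called were within 1.5 times the main count in 112 alternative fits and outside it in 8. Those for withdrawal by label ranged from 0 to 2 when 1 library was left out, and those for day 10 against day 5 by name from 0 to 2; the latter count was 2 with no filter on low counts, which adds Lgr5, and 0 with effective length in the model, where Nkd1 has longer estimated lengths at day 10. No log2 fold change printed for a member with an unadjusted p below 0.05 changed sign. That of Nkd1 ranged from 0.69 to 1.49 (adjusted p 0.00222 to 0.110, edgeR or DESeq2) and lost its call in 5 of 17 alternatives, and that of Lgr5 at 5 days by name ranged from 1.20 to 2.39 (0.0812 to 0.618). The replicate block changed no call of a member. At 5 days by name 0 were called with the block, against 6.15% of all genes. Between days by name Nkd1 stayed called with a log2 fold change of 1.49, where 28.1% of all genes were called. By label same-numbered libraries did not deviate together at 5 days, and 0 members and 0 of 10580 genes were called with the block. With 2 pairs at withdrawal the same-number correlation was 0.212 by label and 0.170 by name, and the value across numbers is its mirror image by construction. With the block 0 members were called there, against 10.6% of all genes by label and 0% by name. Lef1, at or below the floor in most libraries, passed the filter in none of the 8 comparisons and so was not tested.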
